A study of Mus musculus with 12 samples.

Results

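The genes described here are 10 regulators of the first gap phase (G1) of the cell cycle, picked by symbol from the 47729 genes of the count table. They are the CDK inhibitors *Cdkn1a* (p21), *Cdkn1b* (p27), *Cdkn1c* (p57), *Cdkn2c* (p18) and *Cdkn2d* (p19), the further brakes *Ccng2*, *Rbl2* and *Cables1*, and the D cyclins *Ccnd1* and *Ccnd2*. All 10 of 10 passed the filter on low counts in every comparison. In mm10 *Cdkn1a* lies at chr17:29090979-29100722 and *Ccng2* at chr5:93267257-93276231, both on the plus strand, while *Ccnd1* at chr7:144929931-144939925 and *Ccnd2* at chr6:127125162-127152193 lie on the minus strand. RNA was sequenced from intestinal stem cells (ISCs), sorted as EpCAM+ CD24- cells with bright green fluorescence and without CD31, CD45 and TER119, from small intestines of mice aged 8 to 10 weeks that carry *Lgr5-EGFP-IRES-creERT2*. This knock-in allele, shared by all 4 groups, expresses the fluorescent protein and an inducible Cre where the stem cell gene *Lgr5* is active. There were 3 libraries in each group. Ctrl mice were left unrestrained, and the methods state for the restraint protocol that controls went without food and water for the same time. Stress mice, labelled CRS, were restrained for 3 h, and the study describes a single exposure on 1 day for the sequenced mice although the label is the abbreviation for chronic restraint. Vehicle mice received an intraperitoneal injection of 20% sulfobutylether-β-cyclodextrin, and CORT mice received corticosterone at 5 mg/kg in that solution. Stress libraries bear the numbers 1+2, 3 and 4+5+6, so that 1+2 and 4+5+6 appear to pool cells of several mice. Both sexes were used, and the sex behind each library is not given in the sources used here.

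A cell in G1 commits to DNA replication once cyclin D with CDK4 or CDK6, and then cyclin E with CDK2, have phosphorylated the retinoblastoma family of pocket proteins and set E2F factors free. The Cip/Kip inhibitors (p21, p27, p57) bind cyclin-CDK complexes broadly, while the INK4 inhibitors (p18, p19) bind CDK4 and CDK6. Cyclin G2 is an unconventional cyclin linked to cell cycle arrest, p130 (the product of *Rbl2*) is the pocket protein of the DREAM complex in resting cells, and the *Cables1* product is an adaptor of CDKs that favours their inhibitory phosphorylation. Lgr5+ ISCs divide continuously, and D cyclins are among the genes that growth factor and Wnt signals raise in crypts. Glucocorticoids such as corticosterone act through the receptor NR3C1, which binds DNA at a sequence with the half-site AGAACA, and FoxO factors are known activators of several of the brakes.

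Promoter sequence is shown for *Cdkn1a*, *Cdkn1b* and *Rbl2*, because *Cdkn1a* and *Rbl2* are among the members that moved and *Cdkn1b* did not pass the test in any comparison. The RefSeq table for GRCm38.p6, the patch release of the mm10 build, held windows for 6 of the 10 members, 8 windows in all. The windows were searched on both strands, over the 250 bases before the start, for GTAAACA (forkhead core), AGAACA (glucocorticoid receptor half-site), CATGNNNNNNCATG (p53 core pair) and CACGTG (E-box). None of these overlapped another in the windows of the members. The *Cdkn1a* window shown, of 2 in the table, lies at chr17:29090729-29090978 on the plus strand, the *Cdkn1b* window at chr6:134920151-134920400 on the plus strand and the *Rbl2* window at chr8:91069807-91070056 on the plus strand. Each line below reads 5′ to 3′, with the p53 core pair in capitals.
Cdkn1a: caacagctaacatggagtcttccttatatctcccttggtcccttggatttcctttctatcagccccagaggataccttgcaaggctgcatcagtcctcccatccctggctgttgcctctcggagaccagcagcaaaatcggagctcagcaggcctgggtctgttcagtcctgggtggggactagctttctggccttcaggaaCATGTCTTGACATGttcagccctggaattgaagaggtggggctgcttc
Cdkn1b: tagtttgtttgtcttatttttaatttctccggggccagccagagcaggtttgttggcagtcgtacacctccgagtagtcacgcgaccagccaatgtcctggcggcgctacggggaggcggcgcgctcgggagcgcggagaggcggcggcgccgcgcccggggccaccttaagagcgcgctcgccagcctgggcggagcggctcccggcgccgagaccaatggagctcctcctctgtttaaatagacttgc
Rbl2: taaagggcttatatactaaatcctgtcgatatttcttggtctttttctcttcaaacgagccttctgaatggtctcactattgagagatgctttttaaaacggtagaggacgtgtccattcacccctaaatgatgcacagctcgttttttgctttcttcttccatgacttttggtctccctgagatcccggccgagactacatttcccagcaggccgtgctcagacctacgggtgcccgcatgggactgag
The p53 core pair of *Cdkn1a* starts 48 bases before the first transcribed base, and 0.488% of 32817 promoter windows of this length hold that pattern. It was not found in the other *Cdkn1a* window, which lies downstream at chr17:29093519-29093768 and belongs to another start of the gene. The half-site AGAACA was found in 1 of the 8 windows, one of *Cdkn2c*, 222 bases before its start, against 16.1% of all windows. All 250 bases of this *Cdkn2c* window lie in annotated exons, as do those of the *Ccng2* window and the downstream *Cdkn1a* window. In the *Cdkn2d* window 198 bases do. GTAAACA and CACGTG were in none of the 8 windows, and 3.16% and 6.02% of all windows hold them. A match is a description of letters, and these windows leave out most of the regulatory sequence of a gene.

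The libraries held 16152289 to 16943362 estimated counts for Ctrl and 15934907 to 17135770 for stress, and 16465961 to 31280267 for vehicle and 29426183 to 69533214 for CORT, so CORT was sequenced more deeply than vehicle. Levels are given as CPM after TMM normalization (counts scaled to a fixed library total), and as FPKM, which is per length, where genes are compared with each other. Differences are log2 fold changes from edgeR's quasi-likelihood test with its standard error (SE), and a gene is said to rise or fall where the Benjamini-Hochberg adjusted p over all genes was below 0.05. Marker genes of ISCs were high in every library, with a summed level of 6 markers between 10616 and 13854 CPM. Most of that sum was *Olfm4*, with group means of 7370 to 9200 CPM. The group means were 150 to 224 CPM for *Lgr5* and 61.1 to 161 CPM for *Ascl2*. In contrast, 6 stromal and endothelial markers summed to at most 3.25 CPM. The summed level of 6 enterocyte markers was 178 to 201 CPM in Ctrl but 320, 823 and 1674 CPM in stress libraries 3, 1+2 and 4+5+6. These bulk data cannot tell fewer cells of a type from less RNA per cell, and the p-values measure the spread between libraries only, since the labels do not say which mice went into each.

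In stress vs. Ctrl, 1 of the 10 genes rose (*Ccng2*) and 1 fell (*Ccnd2*), where 1.89% of 13722 genes tested were called in either direction, 1.3% as higher and 0.59% as lower ones. After CORT, compared with vehicle, 4 genes rose (*Cdkn1a*, *Ccng2*, *Rbl2* and *Cables1*) and 1 fell (*Ccnd2*), where 8.13% of 14656 genes were called, 3.64% higher and 4.5% lower. *Ccng2* and *Ccnd2* were thus past the test after both treatments. The median log2 fold change of the 10 genes, brakes and D cyclins together, was 0.18 in stress and 0.31 in CORT, with medians of -0.0028 and 0.014 over all genes tested. The members were chosen with earlier results of these data known, so values beside all genes are descriptions. In stress, 4 genes were higher and 2 lower in all 3 treated libraries than in all 3 controls, with 20.4% of all genes not overlapping, 10.1% higher and 10.3% lower. In CORT, 6 were higher and 1 lower without overlap, against 28.7% of all genes, 15.7% higher and 13% lower. In vehicle vs. Ctrl, 0 of the 10 passed edgeR's test, where 0.799% of 13642 genes were called. In that test 5 of the 10 had an unadjusted p below 0.05, as did 11.1% of all genes. DESeq2 called 2 of the 10, and the share of all genes that it called is not given here. Without overlap, 2 of the 10 were higher and 3 lower in vehicle than in Ctrl, against 16.2% of all genes, 8.51% higher and 7.65% lower.

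**Figure D1:**
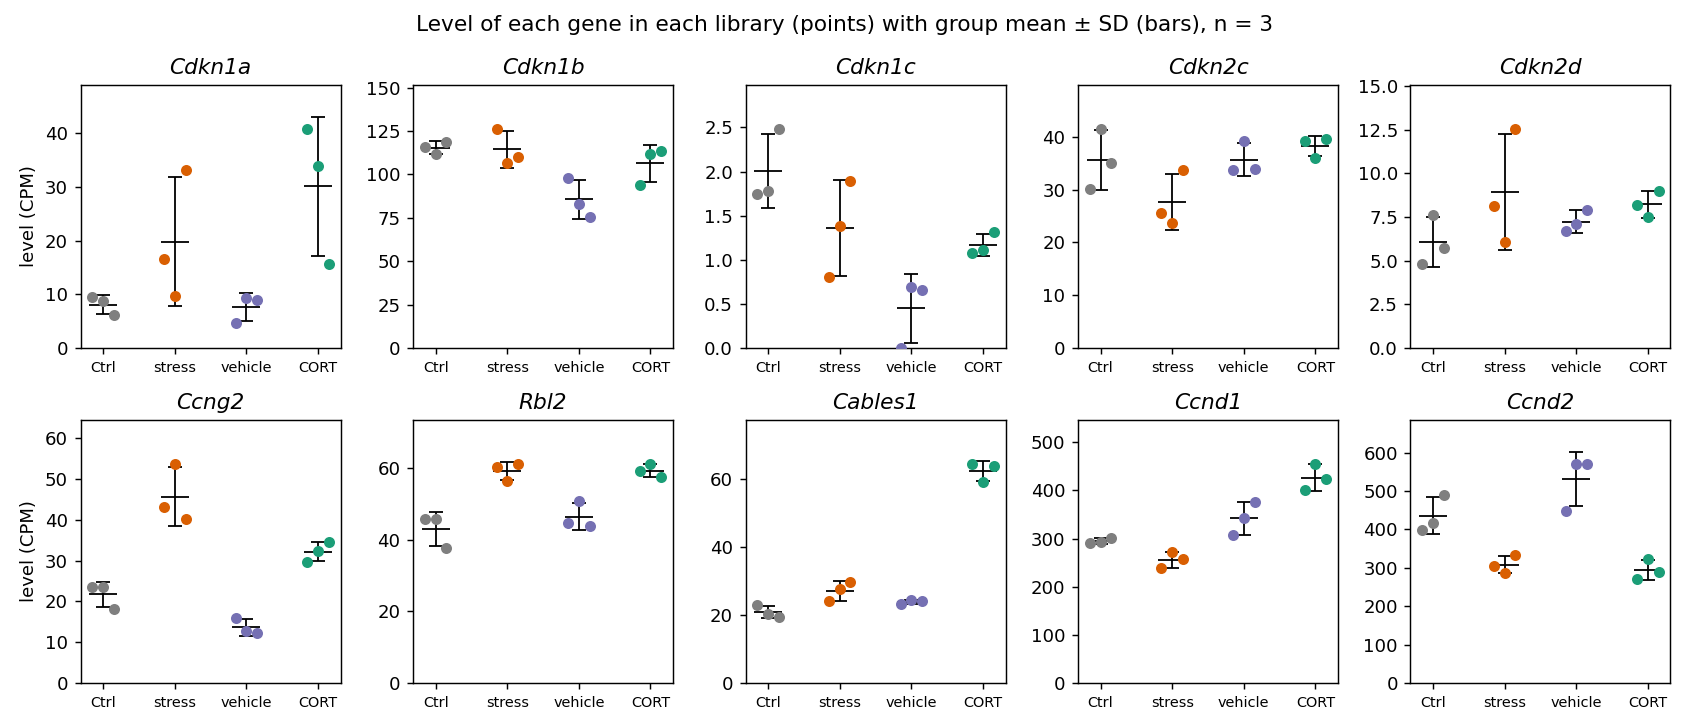
Level (CPM) of each of the 10 genes in every library, with 1 panel per gene, points for libraries and bars for the mean ± SD of 3 libraries. The CORT points lie above all vehicle points for *Cdkn1a*, *Cdkn1c*, *Ccng2*, *Rbl2*, *Cables1* and *Ccnd1* and below them for *Ccnd2*, and *Cdkn1a* spreads from 9.65 to 33.1 CPM in stress.

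Of the Cip/Kip inhibitors, *Cdkn1a* was the one past the test, and it rose in CORT. It stood at 9.42, 8.74 and 6.12 CPM in Ctrl 1, 2 and 3 and at 16.6, 9.65 and 33.1 CPM in stress 1+2, 3 and 4+5+6. It stood at 4.73, 9.31 and 8.88 CPM in vehicle 3, 5 and 6, against 40.8, 33.8 and 15.7 CPM in CORT 2, 4 and 5. All treated libraries were above their controls, but stress 3 lay only just above the highest Ctrl library, and CORT 5 was the lowest of its group. *Cdkn1a* rose 3.86-fold in CORT vs. vehicle (log2 fold change 1.95, SE 0.35, edgeR adjusted p = 0.0110). In stress the difference was 1.29 (SE 0.39) and did not pass edgeR's test (adjusted p = 0.139), while DESeq2 called it (adjusted p = 0.0111). Without stress 3, edgeR gave 1.62 with an adjusted p of 0.00962 and called it.

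The order of the stress libraries in *Cdkn1a*, with 3 lowest and 4+5+6 highest, was also their order in the enterocyte markers. Of those 6 markers 5 rose in stress vs. Ctrl, with a median log2 fold change of 3.20, and *Fabp2* was the one not called. Goblet cell markers summed to 469 to 592 CPM in Ctrl and to 483, 896 and 1433 CPM in stress 3, 1+2 and 4+5+6. The CORT libraries held 127 to 194 CPM of enterocyte markers, against 136 to 189 CPM in vehicle. Within that sum 2 of the 6 markers were above 0 and 4 below 0 in CORT vs. vehicle. *Fabp2* rose (log2 0.46, edgeR adjusted p = 0.0251), and *Fabp1* was at -1.26 (adjusted p = 0.0643). The mean *Cdkn1a* level of the CORT libraries was 30.1 CPM against 19.8 CPM in stress, but CORT 5, at 15.7 CPM, was below stress 1+2 and 4+5+6. Whether cells of these types contributed to the *Cdkn1a* level in stress was not tested.

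**Figure D2:**
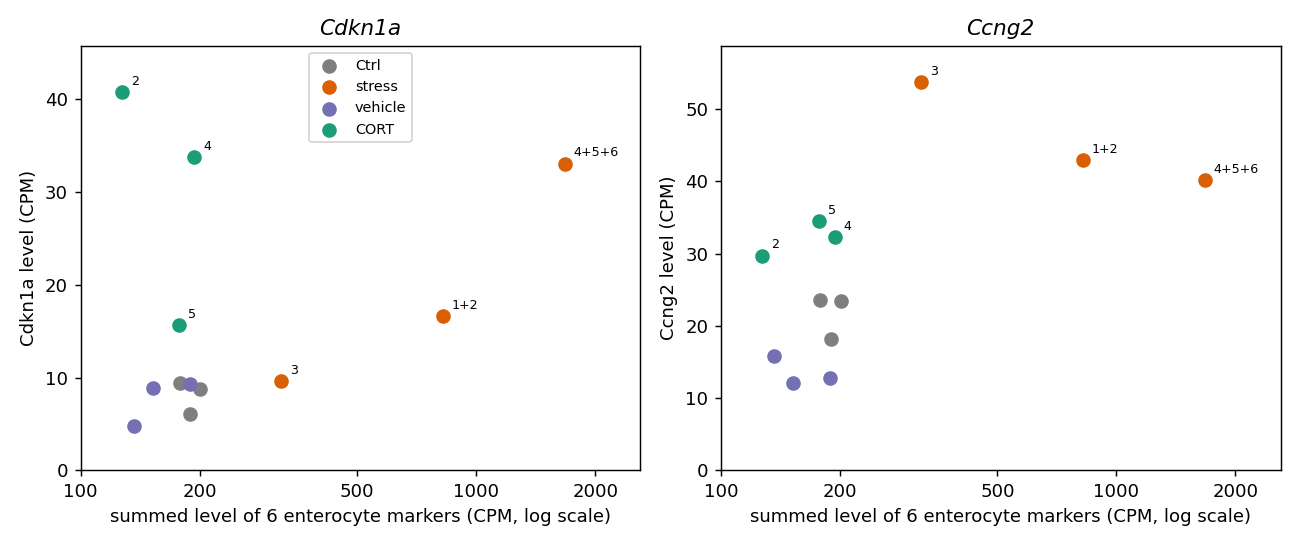
Level (CPM) of *Cdkn1a* (left) and *Ccng2* (right) in each of the 12 libraries against the summed level of 6 enterocyte markers (CPM, log axis), with the numbers of the stress and CORT libraries. *Cdkn1a* was highest among the stress libraries in 4+5+6, which had 1674 CPM of markers, while *Ccng2* was highest in stress 3, which had 320 CPM, and the CORT points are at marker levels of 127 to 194 CPM.

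*Cdkn1b*, the Cip/Kip inhibitor with the highest level in these cells, did not pass the test in any comparison. It stood at 116, 112 and 119 CPM in Ctrl 1, 2 and 3, at 126, 107 and 110 CPM in stress 1+2, 3 and 4+5+6, at 98.1, 83.2 and 75.6 CPM in vehicle 3, 5 and 6, against 93.8, 112 and 113 CPM in CORT 2, 4 and 5. All vehicle libraries were below all Ctrl libraries, and the stress and Ctrl libraries overlapped. The log2 fold change was -0.01 (SE 0.09) in stress and 0.29 (SE 0.12, edgeR adjusted p = 0.170) in CORT. In vehicle vs. Ctrl it was -0.43 (SE 0.10), with an adjusted p of 0.103 from edgeR and 0.0104 from DESeq2. The CORT libraries, at 106 ± 10.9 CPM (SD, n = 3), were therefore nearer to Ctrl at 115 ± 3.62 CPM than vehicle was at 85.6 ± 11.4 CPM.

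*Cdkn1c* had the lowest level of the 10 genes. Its estimated counts were 30, 30 and 41 for Ctrl, 13, 23 and 33 for stress, 0, 12 and 20 for vehicle and 71, 65 and 38 for CORT, the last in libraries of greater depth. In CPM the Ctrl libraries spanned 1.75 to 2.48, stress 0.802 to 1.89, vehicle 0 to 0.694 and CORT 1.08 to 1.31. Vehicle 3 was at 0 counts, which allows up to 12 counts or 0.709 CPM (about 3 read pairs), an interval for counting error only. The log2 fold changes were -0.55 (SE 0.49) in stress, 1.31 (SE 0.80) in CORT and -2.11 (SE 0.78) in vehicle vs. Ctrl, and none passed edgeR's test (adjusted p = 0.674, 0.369 and 0.319). The vehicle libraries were all below Ctrl and all below CORT, at an unadjusted p of 0.0208 for vehicle vs. Ctrl and 0.135 for CORT vs. vehicle.

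The INK4 inhibitors among the members, *Cdkn2c* and *Cdkn2d*, did not pass the test in any comparison. *Cdkn2c*, the more abundant of both, spanned 30.2 to 41.5 CPM over Ctrl and 23.8 to 33.6 over stress, and 33.7 to 39.3 over vehicle and 36.0 to 39.5 over CORT, with overlap in both comparisons. Its log2 fold change was -0.36 (SE 0.17, edgeR adjusted p = 0.354) in stress and 0.08 (SE 0.10, adjusted p = 0.693) in CORT. *Cdkn2d* spanned 4.83 to 7.61 CPM over Ctrl and 6.09 to 12.6 over stress, and 6.68 to 7.93 over vehicle and 7.48 to 9.02 over CORT. The 12.6 CPM of *Cdkn2d* came from stress 4+5+6, the library highest in enterocyte markers and in *Cdkn1a*. Its log2 fold change was 0.56 (SE 0.31, edgeR adjusted p = 0.449) in stress and 0.16 (SE 0.17, adjusted p = 0.638) in CORT.

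*Ccng2* rose by more than 2-fold after both treatments. It stood at 23.6, 23.4 and 18.1 CPM in Ctrl 1, 2 and 3 and at 43.0, 53.8 and 40.2 CPM in stress 1+2, 3 and 4+5+6. It stood at 15.9, 12.8 and 12.1 CPM in vehicle 3, 5 and 6, against 29.7, 32.2 and 34.5 CPM in CORT 2, 4 and 5. Neither pair of groups overlapped, and every vehicle library was below every Ctrl library. The rise was 2.11-fold in stress (log2 1.07, SE 0.15, edgeR adjusted p = 0.00949) and 2.33-fold in CORT (log2 1.22, SE 0.14, adjusted p = 0.00134), past the 2-fold threshold both times, as were 0.612% of genes on the higher side in stress and 1.13% in CORT. The difference between the responses was -0.15 (SE 0.21) and did not pass the test (adjusted p = 0.830). Vehicle vs. Ctrl gave -0.68 (SE 0.18), not called by edgeR (adjusted p = 0.130) and called by DESeq2 (adjusted p = 0.0378), and the mean level was 32.2 CPM in CORT against 45.7 CPM in stress. Among the stress libraries *Ccng2* was highest in library 3, the one lowest in enterocyte markers, and leaving out any 1 library gave log2 fold changes between 0.94 and 1.16 with the call kept. The call in stress was lost with no filter on low counts (adjusted p = 0.0669) and in both filtered fits of log2 FPKM with limma (adjusted p = 0.0644 and 0.0692).

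*Rbl2*, the gene of p130, was higher in every treated library than in every control of its comparison, by less than 2-fold. It stood at 45.8, 45.7 and 37.6 CPM in Ctrl 1, 2 and 3, at 60.3, 56.3 and 61.0 CPM in stress 1+2, 3 and 4+5+6, at 44.7, 50.8 and 43.8 CPM in vehicle 3, 5 and 6, against 59.1, 61.2 and 57.6 CPM in CORT 2, 4 and 5. The treated groups averaged 59.2 CPM in stress and 59.3 CPM in CORT, and the highest control library was vehicle 5. The log2 fold change of 0.33 in CORT (SE 0.09) just passed the test (edgeR adjusted p = 0.0445). It did not when any 1 of vehicle 3, vehicle 6, CORT 2, CORT 4 or CORT 5 was left out (adjusted p = 0.0980 to 0.169). Nor did it when counts were thinned to the smallest library total (adjusted p = 0.0831). Over all 16 alternatives with edgeR, DESeq2 or limma the call was lost in 9, with adjusted p up to 0.546. The larger log2 fold change of 0.46 in stress (SE 0.11) just missed edgeR's test (adjusted p = 0.0650), while DESeq2 called it (adjusted p = 0.0243). *Aktip*, on the opposite strand, shares 693 exon bases with *Rbl2*, and no source states that reads were counted by strand. *Aktip* was at -0.05 in stress and 0.21 in CORT, neither past the test.

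*Cables1* separated CORT from the other 3 groups. It stood at 22.8, 20.3 and 19.4 CPM in Ctrl 1, 2 and 3, at 23.9, 27.6 and 29.6 CPM in stress 1+2, 3 and 4+5+6, at 23.0, 24.2 and 24.2 CPM in vehicle 3, 5 and 6, against 64.5, 59.0 and 63.6 CPM in CORT 2, 4 and 5. Every CORT library was above all of the other 9, and the stress libraries lay just above Ctrl. The rise in CORT was 2.58-fold (log2 1.37, SE 0.08, edgeR adjusted p = 7.07e-05), and it ranked 9 by p among the 14656 genes tested. In stress the log2 fold change was 0.38 (SE 0.14) and did not pass the test (adjusted p = 0.232). The difference between the responses, stress minus CORT, was -0.99 (SE 0.15) and passed the test of the interaction over 12 libraries (edgeR adjusted p = 0.0139), where 0.388% of 14415 genes were called. This call was lost without Ctrl 1, where the difference was -0.92 with an adjusted p of 0.0543, and in the fits of log2 FPKM (adjusted p = 0.0502 to 0.135). An antisense gene, *Gm6277*, shares 1314 exon bases with *Cables1* and was called higher in CORT (log2 3.44, edgeR adjusted p = 0.0268). *Gm6277* did not pass the filter on low counts in stress vs. Ctrl, and its lowest count was 0, so the call is a description. The counts assigned to *Gm6277* were at most 99 in any library, against 1841 to 4245 for *Cables1* in CORT. How many reads from the shared bases were counted for *Cables1* was not tested.

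**Figure D3:**
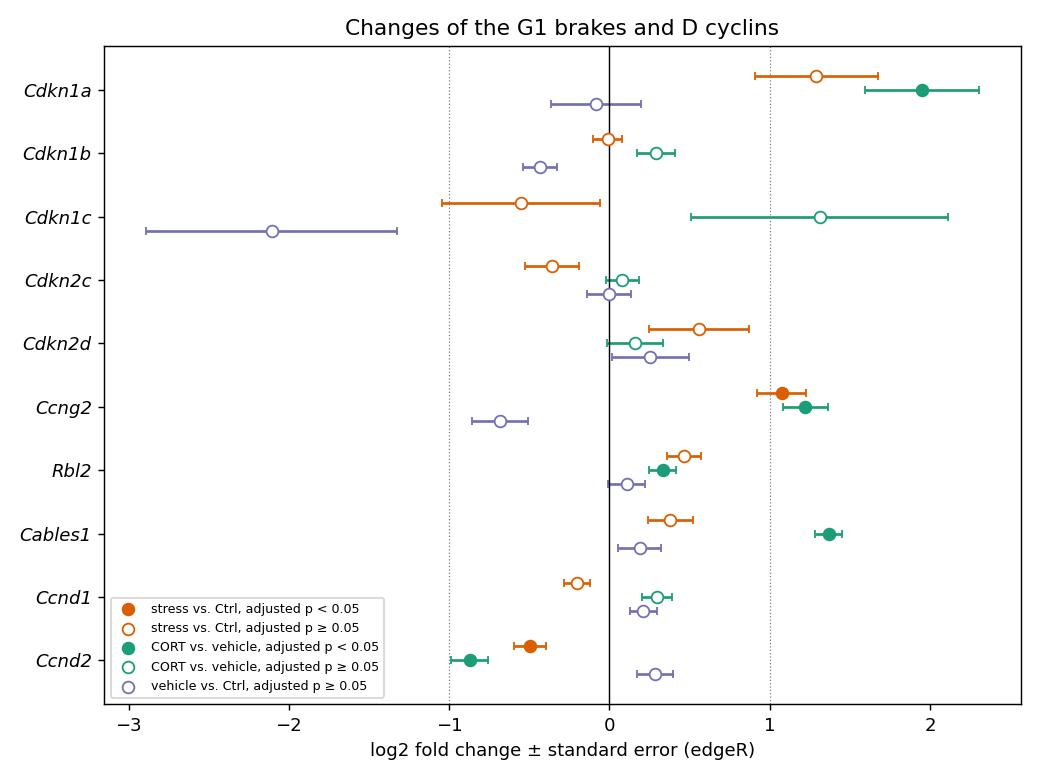
Log2 fold change ± SE from edgeR for each gene in stress vs. Ctrl, CORT vs. vehicle and vehicle vs. Ctrl (3 against 3 libraries each), with filled points for an adjusted p below 0.05 and dotted lines at a 2-fold change. *Ccng2* and *Ccnd2* are filled in both treatment comparisons, *Cdkn1a*, *Rbl2* and *Cables1* in CORT only, which is not by itself a test of a difference, and no point is filled in vehicle vs. Ctrl.

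Of the D cyclins, *Ccnd2* was the one past the test, and it fell after both treatments. It stood at 400, 416 and 491 CPM in Ctrl 1, 2 and 3 and at 306, 287 and 332 CPM in stress 1+2, 3 and 4+5+6. The values were 449, 572 and 572 CPM in vehicle 3, 5 and 6, against 270, 323 and 290 CPM in CORT 2, 4 and 5. All treated libraries were below all controls. *Ccnd2* fell to 0.546 of the vehicle level in CORT (log2 fold change -0.87, SE 0.11, edgeR adjusted p = 0.00226) and to 0.709 of the Ctrl level in stress (log2 fold change -0.50, SE 0.10, adjusted p = 0.0392), both changes of less than 2-fold. The call in stress was lost without any 1 of Ctrl 1, 2 or 3 or of stress 1+2 or 4+5+6 (adjusted p = 0.0643 to 0.157), with the log2 fold change at -0.55 to -0.40, with no filter on low counts (adjusted p = 0.129), and in both filtered fits of log2 FPKM (adjusted p = 0.0938 and 0.0963). The difference between both responses was 0.37 (SE 0.16, adjusted p = 0.351). Antisense genes that overlap *Ccnd2* had at most 29 counts in any library.

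*Ccnd1* did not pass edgeR's test in either comparison. It stood at 290, 292 and 302 CPM in Ctrl 1, 2 and 3, at 238, 272 and 258 CPM in stress 1+2, 3 and 4+5+6, at 307, 343 and 376 CPM in vehicle 3, 5 and 6, against 400, 456 and 423 CPM in CORT 2, 4 and 5. All stress libraries were below Ctrl and all CORT libraries above vehicle. The log2 fold change was -0.20 (SE 0.08, edgeR adjusted p = 0.268) in stress and 0.30 (SE 0.09, adjusted p = 0.0916) in CORT, and DESeq2 called the latter (adjusted p = 0.0117). The difference between the responses was -0.50 (SE 0.12), not called by edgeR (adjusted p = 0.0907) and called by DESeq2 (adjusted p = 0.00570). *Oraov1*, which shares 1100 exon bases with *Ccnd1* on the opposite strand, was at 0.14 in stress and 0.20 in CORT, neither past the test.

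Per length, the ratio of *Ccnd1* to *Ccnd2* FPKM was 1.199, 1.152 and 0.997 in Ctrl 1, 2 and 3, and 1.12, 1.01 and 1.10 in vehicle 3, 5 and 6. It was 1.29, 1.54 and 1.29 in stress 1+2, 3 and 4+5+6, and 2.47, 2.33 and 2.45 in CORT 2, 4 and 5. Both messages were thus near equal in the control groups, where *Ccnd1* was below *Ccnd2* only in Ctrl 3. The ratio was higher in every treated library than in every control library, with stress 1+2 and 4+5+6 at 1.29 close to Ctrl 1 at 1.199. The mean ratio was 2.42 ± 0.0759 in CORT against 1.07 ± 0.0606 in vehicle, and 1.37 ± 0.144 in stress against 1.12 ± 0.106 in Ctrl (SD, n = 3). Each difference had p = 0.1 in an exact two-sided permutation test, the smallest p that 3 against 3 libraries allow, and 0.3 after adjustment over 9 such tests. The FPKM of *Ccnd1*, *Ccnd2* and *Ccnd3* together came to 155 ± 13.5 for Ctrl and 124 ± 6.24 for stress, and to 184 ± 18.6 for vehicle and 157 ± 5.30 for CORT. The share of *Ccnd3* in that sum was 11.8% ± 2.22 for Ctrl and 11.7% ± 0.505 for vehicle, and 13.2% ± 3.19 for stress and 12.3% ± 1.91 for CORT (SD, n = 3), differences within the spread of the libraries.

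**Figure D4:**
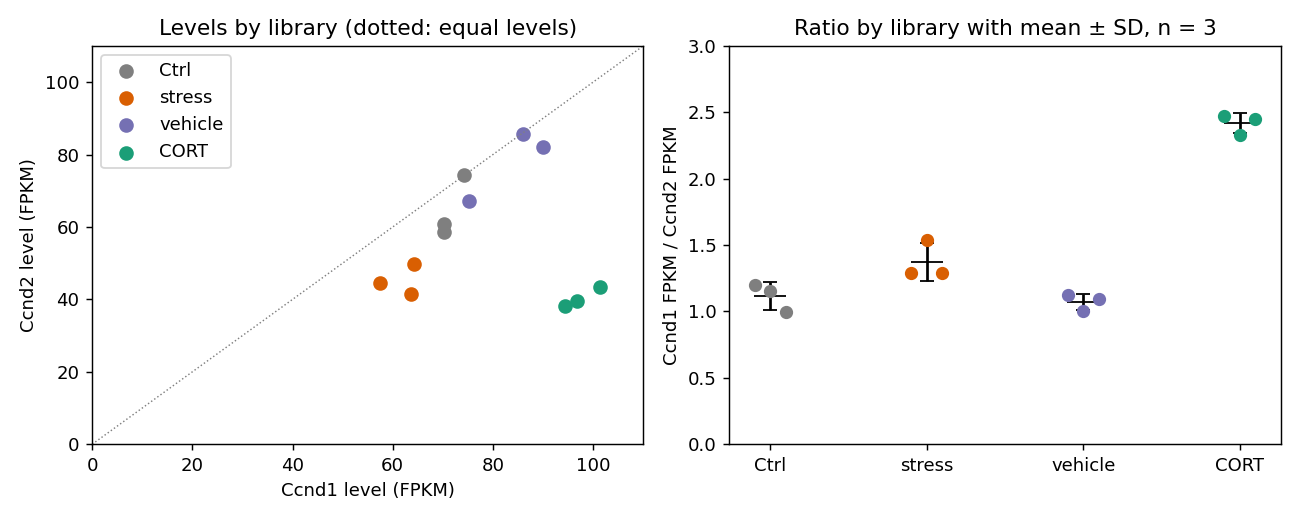
Left, FPKM of *Ccnd2* against FPKM of *Ccnd1* in each of the 12 libraries, with a dotted line where both are equal, and right, their ratio by library with the mean ± SD of 3 libraries. The CORT libraries stand apart at ratios of 2.33 to 2.47, and the control libraries lie between 0.997 and 1.199.

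The order of levels per length was led in all 4 groups by *Ccnd1*, *Ccnd2* and *Cdkn1b*, and *Cdkn1c* was last in all. In Ctrl these means were 71.6 ± 2.33, 64.7 ± 8.57, 33.6 ± 0.539 and 0.986 ± 0.276 FPKM (SD, n = 3). *Ccnd1* and *Ccnd2* overlapped in Ctrl and in vehicle, so neither was higher beyond the spread, and they did not overlap in stress and CORT. The order of the other 6 genes differed between groups. *Cables1* ranked 7 in Ctrl at 5.58 ± 0.434 FPKM, where it overlapped *Ccng2* and *Cdkn2d*, and ranked 4 in CORT at 15.8 ± 1.22 FPKM, where its libraries lay above those of *Cdkn2c*. *Ccng2* ranked 6 in Ctrl at 6.91 ± 1.59 FPKM, 4 in stress at 13.5 ± 1.93 and 8 in vehicle at 4.36 ± 0.759. *Cdkn1a* ranked 9 in Ctrl at 3.88 ± 0.729 FPKM and in vehicle at 3.72 ± 1.28, 7 in stress at 9.55 ± 5.99 and 6 in CORT at 13.6 ± 5.95, and in both treated groups it overlapped its neighbours in the order.

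**Figure D5:**
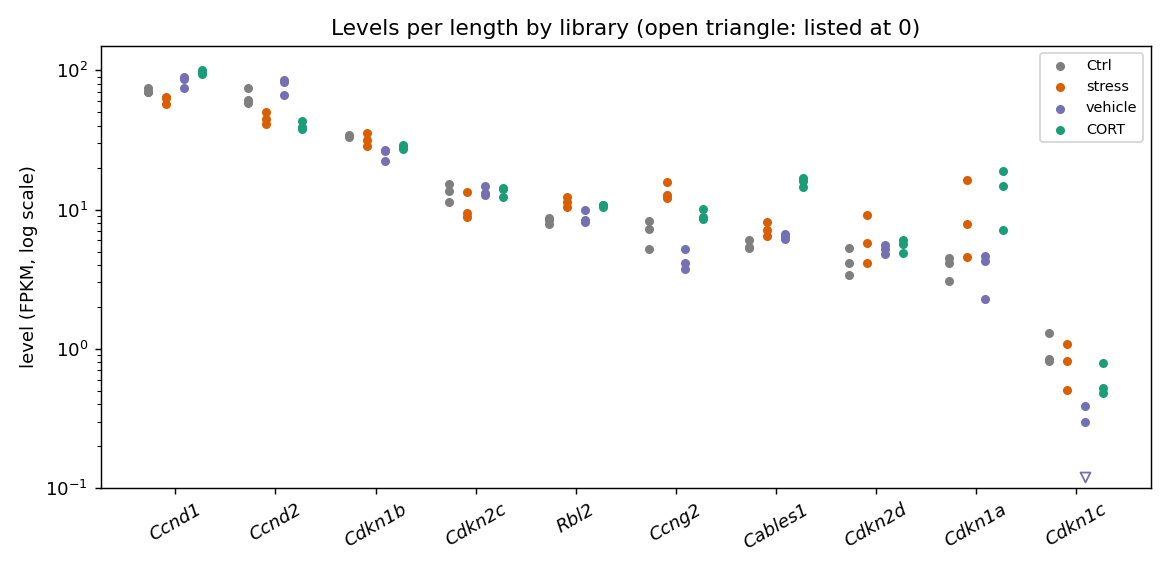
Level per length (FPKM, log axis) of the 10 genes in each library, ordered by their mean in Ctrl, with an open triangle for a library listed at 0. *Ccnd1*, *Ccnd2* and *Cdkn1b* lie above the other 7 genes in all groups, and the CORT points of *Cables1*, at 14.5 to 16.9 FPKM, lie above those of the other groups.

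The counts for the wider G1 network stand beside 1.89% of all genes called in stress and 8.13% in CORT, and beside 15.2% and 23.4% of all genes with an unadjusted p below 0.05. Of 15 other G1 brakes 14 were tested, and *Cdkn2a*, the gene of p16 and p19Arf, was at 0 in all 4 groups. *Btg2*, an antiproliferative gene that p53 and other signals induce, rose in both comparisons, from 57.0 ± 5.35 to 100.2 ± 12.6 CPM in stress (log2 0.82, SE 0.11, edgeR adjusted p = 0.00842) and from 55.0 ± 4.32 to 164 ± 71.6 CPM in CORT (log2 1.56, SE 0.27, adjusted p = 0.00929). In CORT its libraries 2, 4 and 5 stood at 233, 170 and 90.3 CPM. *Cdkn1a* had the same order, and so did the totals of these libraries, at 69533214, 59689732 and 29426183 counts. The related *Btg1* and *Tob1* rose in CORT as well, by 0.71 and 0.37 in log2, and *Cables2*, a paralog of *Cables1*, fell by 0.32. *Btg1* was also lower in vehicle than in Ctrl by -0.53 (adjusted p = 0.0360). The list thus had 1 gene higher and 0 lower in stress and 3 higher and 1 lower in CORT, with medians of 0.15 in both. *Cdkn2b*, not called, had the largest log2 fold change of the list in stress, at 3.54 (SE 0.87, edgeR adjusted p = 0.0808). It spanned 0 to 1.15 CPM in Ctrl and 2.35 to 12.6 CPM in stress, without overlap. In CORT *Cdkn2b* was at -0.91 (adjusted p = 0.411), and the difference between the responses was 4.45 (SE 1.17, adjusted p = 0.111).

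Of 14 G1 kinases, cyclins and activators, 1 fell in each comparison and 0 rose. *Ccne1*, the gene of cyclin E1, stood at 17.7, 18.4 and 19.1 CPM in Ctrl 1, 2 and 3 and at 6.17, 8.50 and 10.2 CPM in stress 1+2, 3 and 4+5+6. This fall of more than 2-fold (log2 fold change -1.15, SE 0.21, edgeR adjusted p = 0.0239) was the only one past both thresholds in the list. In CORT *Ccne1* was at -0.42 (adjusted p = 0.0746). *Cdk6*, a partner of the D cyclins, went from 208 ± 8.23 CPM in vehicle to 166 ± 10.8 CPM in CORT (log2 fold change -0.35, SE 0.08, adjusted p = 0.0234), and *Cdk4* was at 0.08 (adjusted p = 0.647). At an unadjusted p below 0.05 there were 4 of the 14 in stress and 3 in CORT, against 15.2% and 23.4% of all genes. The median of the list was -0.14 in stress and -0.03 in CORT.

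None of the 10 partners of the DREAM complex and pocket proteins passed edgeR's test in either comparison, with 0 of 10 at an unadjusted p below 0.05 in stress and 1 of 10 in CORT. Of 14 genes for the turnover of brakes and D cyclins, 0 passed in stress and 1 in CORT, *Dtl*, a substrate receptor of the ubiquitin ligase that degrades p21 (log2 0.43, SE 0.08, edgeR adjusted p = 0.0143). At an unadjusted p below 0.05 there were 1 and 2 of the 14, against 15.2% of all genes in stress and 23.4% in CORT. Among 12 transcription factors known to act on the members, *Myc* fell in stress (log2 fold change -0.47, SE 0.09, adjusted p = 0.0332). In CORT *Foxo3* rose by 0.51 and 4 fell, namely *Nr3c1* with -0.37, *Cebpa* with -0.55, *Klf4* with -0.86 and *Cebpb* with -1.01. *Foxo3* was at 0.35 in stress, short of the test (adjusted p = 0.0853).

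Of 12 genes listed as E2F-driven S phase genes, 1 rose in each comparison. *Mki67*, which marks cycling cells, rose in stress (log2 0.43, SE 0.08, edgeR adjusted p = 0.0282), and *Rrm2*, the small subunit of ribonucleotide reductase, rose in CORT from 49.7 ± 5.36 to 100.3 ± 1.90 CPM (log2 0.99, SE 0.09, adjusted p = 0.000433). The difference between the responses was called for *Rrm2* as it was for *Cables1*, at -1.14 (SE 0.15, adjusted p = 0.00691). The medians of the list were -0.19 in stress and 0.15 in CORT, where 9 of the 12 genes were below 0 in stress and 9 above 0 in CORT. At an unadjusted p below 0.05 in stress, *Mki67* was higher and 6 genes were lower, namely *Pcna*, *Mcm2*, *Mcm3*, *Mcm4*, *Mcm5* and *Mcm6*. In CORT 4 were higher, namely *Pcna*, *Ccna2*, *Rrm2* and *Tyms*. Of all genes, 15.2% in stress and 23.4% in CORT were below that p in either direction.

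The stem cell label of the sort was checked with *Lgr5*, *Olfm4*, *Ascl2*, *Smoc2*, *Slc12a2* and *Axin2*. *Ascl2*, a Wnt target and ISC regulator, was lower after both treatments, and its log2 fold changes were -1.23 in stress (edgeR adjusted p = 0.000336) and -0.998 in CORT (adjusted p = 0.0114). *Lgr5* and *Smoc2* fell in CORT, by 0.43 and 0.31 in log2, so that 1 of the 6 markers fell in stress and 3 in CORT. Above 0 were *Olfm4* (0.23) and *Slc12a2* (0.21) in stress and *Olfm4* (0.15) in CORT, none past the test. Paneth cell markers summed to 185 to 213 CPM in vehicle and 105 to 118 CPM in CORT, and 4 of the 6 fell (*Defa17*, *Defa24*, *Mmp7* and *Itln1*), while *Mmp7* rose in stress. Of the goblet cell markers *Clca1* and *Zg16* rose in stress and 0 of 6 passed in CORT, with 0 at an unadjusted p below 0.05. Of the enteroendocrine markers 5 were tested and 0 passed in either comparison (1 each at an unadjusted p below 0.05), and of 4 tuft cell markers tested *Pou2f3* fell in CORT. Markers of blood cells summed to at most 6.57 CPM. *Pecam1*, the gene of CD31, was the one stromal or endothelial marker tested. It passed the filter on low counts in CORT vs. vehicle but not in stress vs. Ctrl or vehicle vs. Ctrl. Its means were 0.542 CPM in vehicle, near the 0.392 to 0.709 CPM that about 3 read pairs give, and 2.37 CPM in CORT. *Pecam1* was called higher in CORT, but only where its CORT level carried it past the filter, so the call is a description. *Fabp1* and *Mmp7* were the markers for which the interaction was called, and both also differed between the control groups. *Fabp1* was 3.77-fold (edgeR adjusted p = 0.0183) and *Mmp7* 4.11-fold (adjusted p = 0.000183) higher in vehicle than in Ctrl, and *Mmp7* averaged 90.5 CPM in vehicle and 37.0 CPM in CORT. The part of these shifts in the changes of the brakes and D cyclins was not tested.

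The genes whose profile over the 12 libraries was closest to a member were found by the root mean square difference of centred log2 CPM among 14415 genes. For *Ccng2* these were *Arntl* at 0.21, *Npc1* at 0.28 and *Klf6* at 0.29, where *Ccng2* itself varied by 0.66. *Arntl*, a core gene of the circadian clock, had group means of 25.3 (Ctrl), 53.4 (stress), 16.1 (vehicle) and 39.0 CPM (CORT), beside 21.7, 45.7, 13.6 and 32.2 CPM for *Ccng2*. For *Cables1* they were *Clic4* at 0.16, *Bcl2l1* at 0.19 and *Mt1* at 0.19, and *Clic4* went from 80.2 CPM in vehicle to 238 CPM in CORT. For *Ccnd2* they were *Lad1*, *Klf16* and *Kcnn4*, at 0.11 to 0.12, with *Lad1* at 351 (Ctrl), 261 (stress), 422 (vehicle) and 230.1 CPM (CORT). For *Ccnd1* they were *Slc25a4*, *Tgm2* and *Mgat4b*, at 0.10 to 0.12. For *Rbl2* they were *Kif11*, *Adnp2* and *Klhl42*, at 0.081 to 0.086. *Cdkn1a* had no neighbour as close, with *Tmem37* at 0.39, *Plpp3* at 0.40 and *Ppargc1a* at 0.42, where it varied by 0.93. The nearest genes to *Cdkn1b*, *Cdkn1c*, *Cdkn2c* and *Cdkn2d* were *Phkg2* (0.10), *Gm10209* (0.32), *Btd* (0.13) and *Lpcat3* (0.16). The 12 libraries fall into the same 4 groups for every gene and differ in depth, so these distances are descriptions.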

How the data were processed

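Paired reads had been aligned to mm10. The submitters' processing notes name HISAT2 2.2.1 and StringTie 2.2.1, while the methods of the study name another counter, featureCounts. The authors deposited 1 table of estimated counts (expected counts in whole numbers, not divided by library size) for 12 libraries and 47729 genes, and also FPKM and coverage (a signal per base) for each library. In these files 1 read pair gives about 4 counts, so counting error is larger than the counts show, and counts divided by 4 were tried. No column was left without a sample (0 columns).

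Counts were rounded and tested with edgeR 4.0.16 in R 4.3.3 (quasi-likelihood F-test, TMM, filterByExpr, Benjamini-Hochberg adjustment over all genes tested, threshold 0.05) on the 6 libraries of each comparison. The interaction used all 12. SE is the absolute log2 fold change divided by the square root of F. Alternatives were DESeq2 1.42.0, its size factors, other filters (none, or 10 counts in every library), limma 3.58.1 on log2(FPKM + 1) and log2(FPKM + 0.1), leaving out each library, 12 libraries in one fit, and, chosen after seeing the data, thinning to the smallest library. FPKM also gave levels between genes. The procedure was tested on simulated data.

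Members and lists were chosen with earlier results of these data known. The genes named are mainly the members, list genes past the test and the 3 nearest profiles of each member. Of 126 symbols that occurred more than once, the entry with the largest mean count was taken.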

Additional observations from a re-analysis of the deposited data

Results flagged for a closer look

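The responses of *Cables1* to stress and to CORT differed by a test of the difference itself, at -0.99 in log2 (stress minus CORT, SE 0.15, edgeR adjusted p = 0.0139), with *Cables1* at 0.38 in stress vs. Ctrl and 1.37 in CORT vs. vehicle. Its values in every library are given above, and its CORT libraries lay above the other 9. Groups of 3 libraries were too small for a check of single libraries that stand apart.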

How the results depend on the processing

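In CORT vs. vehicle the count of members past the test stayed at 4 to 6 under every alternative run, and *Cdkn1a*, *Ccng2*, *Cables1* and *Ccnd2* kept their calls in all 16, while *Rbl2* lost its call in 9. In stress vs. Ctrl the 2 genes past the test became 4 with DESeq2 (with *Cdkn1a* and *Rbl2*), 0 with no filter on low counts, 0 with log2(FPKM + 1) and 0 with log2(FPKM + 0.1), and 1 to 4 when 1 library was left out (4 without stress 3). In vehicle vs. Ctrl the 0 became 2 with DESeq2 and 0 to 1 when 1 library was left out (*Cdkn1b* without vehicle 3, adjusted p = 0.0252). For the interaction, the 1 gene became 2 with DESeq2, 0 in each of the 3 FPKM fits (*Cables1* adjusted p = 0.0502, 0.135 and 0.0548) and 0 to 2 when 1 library was left out (2 without stress 3, with *Ccnd1* at an adjusted p of 0.0438). The shares of all genes called under these alternatives are not given here, and the cause of these shifts was not tested. In the FPKM fits with no filter, limma warned of residual variances of 0, and they are weak evidence. Values near 0 changed sign: *Cdkn2c* in vehicle vs. Ctrl (-0.0015) was 0.00059 with no filter on counts, 0.024 with log2(FPKM + 1) with and without a filter, 0.026 with log2(FPKM + 0.1) and 0.0052 after thinning, and -0.11 to 0.12 when 1 library was left out. *Cdkn1b* in stress ranged from -0.087 to 0.039 and *Cdkn1a* in vehicle vs. Ctrl from -0.25 to 0.16 when 1 library was left out. Of 683 values of single genes under alternatives, 632 kept direction and side of the threshold, 24 lost a call, 14 gained one and 13 changed sign. No paired analysis was possible because only 1 library of each comparison has a partner with its own number (3 in Ctrl and stress, 3 in Ctrl and vehicle, 5 in vehicle and CORT), and stress 1+2 joins 2 numbers.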
